A study of Rattus norvegicus with 8 samples.

Results

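The early growth response (Egr) family was followed through a rat model of stroke in which some animals had been given candesartan beforehand. Its members are Egr1, Egr2, Egr3 and Egr4, 4 of the 10411 genes that the platform annotation of the Affymetrix RAE 230A array names by a single symbol. They were taken by symbol and had 6 probe sets (sets of short probes read as 1 value), 1 each for Egr1 and Egr3 and 2 each for Egr2 and Egr4. Male Wistar rats, 7 weeks old and with no genetic change named, received vehicle (saline) or candesartan, a blocker of the angiotensin AT1 receptor, for 5 days with 2 doses a day. Surgery followed, either a sham procedure or middle cerebral artery occlusion (MCAO) on the right side, held for 90 min and then released. Total RNA came from a piece of the right hemisphere 2 h after the operation, and the labels do not say whether that piece held ischemic tissue alone. The candesartan dose was 0.1 mg/kg. RNA of 2 rats was pooled for each array, and each of the 4 groups, named by surgery and pretreatment (such as MCAO candesartan), had 2 independent pools, so 8 arrays were compared. The treatment text of MCAO candesartan 2 names no pretreatment, and its group rests on its description.

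Egr proteins are zinc finger transcription factors of the immediate early class: their genes are switched on within minutes by calcium entry, growth factors or depolarization, without new protein synthesis. The signal reaches their promoters largely through ERK kinases, ternary complex factors of the Ets family and serum response factor (SRF), which binds the CArG box, and through CREB, which binds the cyclic AMP response element. The proteins bind GC-rich sites in the promoters of later genes, and several of them, though not all, are held in check by the corepressors Nab1 and Nab2. In brain, Egr1 (also zif268, NGFI-A or Krox-24) is a common marker of neuronal activity, Egr2 (Krox20) is best known from hindbrain patterning and myelination, Egr3 from long-term memory and muscle spindles, and Egr4 is also known as NGFI-C.

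After MCAO the Egr1 signal was 1.86 times that of sham in vehicle rats and 2.05 times in candesartan rats. The main Egr4 probe set was 2.12 and 2.78 times sham. All 4 of these rises passed the test over the 10310 probe sets above a signal limit. The main Egr2 probe set was 1.72 times sham with vehicle, which did not pass, and 2.09 times with candesartan, which did. Egr3 was 1.09 and 1.496 times sham, and neither value passed. Without that limit the vehicle rises of Egr1 and Egr4 missed the threshold (adjusted p = 0.0906 and 0.0911). The candesartan rise of Egr2 missed it too (adjusted p = 0.117). The second probe sets of Egr2 and Egr4 lay below the limit, and neither passed. Of all probe sets tested, 0.262% passed with vehicle and 0.242% with candesartan. No Egr probe set passed when candesartan was compared with vehicle, after MCAO or after sham surgery.

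The DNA before the start sites of the members is shown first. The RefSeq promoter table of rat assembly GRCr8 matched 3 of the 4 members. It held no entry for Egr3, so the windows were not chosen by the MCAO response and cannot be compared with Egr3. The 250 bases before each start are given 5′ to 3′ on the gene's strand, with capitals marking CArG boxes and the core TGACG of the cyclic AMP response element, read on either strand. The start the table uses for Egr2 lies inside the gene's annotated span, so its window does too, while those of Egr1 and Egr4 adjoin the end of theirs.

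Egr1 (chr18:26736828-26737077, + strand): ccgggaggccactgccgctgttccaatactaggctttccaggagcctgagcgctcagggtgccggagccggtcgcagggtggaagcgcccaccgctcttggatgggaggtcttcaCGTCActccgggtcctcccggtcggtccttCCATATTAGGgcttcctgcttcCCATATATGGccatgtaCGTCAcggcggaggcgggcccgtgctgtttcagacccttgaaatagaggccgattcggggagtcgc

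Egr2 (chr20:21054442-21054691, - strand): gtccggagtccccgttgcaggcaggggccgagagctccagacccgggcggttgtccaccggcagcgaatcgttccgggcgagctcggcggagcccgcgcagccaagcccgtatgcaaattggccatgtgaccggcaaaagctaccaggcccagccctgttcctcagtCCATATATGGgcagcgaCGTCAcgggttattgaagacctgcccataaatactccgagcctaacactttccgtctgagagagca

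Egr4 (chr4:119607818-119608067, - strand): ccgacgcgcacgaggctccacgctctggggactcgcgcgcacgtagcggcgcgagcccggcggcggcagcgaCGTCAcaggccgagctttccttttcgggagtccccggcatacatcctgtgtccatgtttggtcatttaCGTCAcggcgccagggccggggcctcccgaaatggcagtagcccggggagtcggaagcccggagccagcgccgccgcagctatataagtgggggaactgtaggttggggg

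Egr1 held 2 CArG boxes, CCATATTAGG at 105 to 96 bases and CCATATATGG at 83 to 74 bases before the start, and Egr2 held 1. The Egr2 box had the same letters, CCATATATGG, at the same 83 to 74 bases, and in both genes a TGACG core followed at 66 to 62 bases. Egr4 held 0 CArG boxes and 2 TGACG cores, at 178 to 174 and 110 to 106 bases, while Egr1 had another TGACG core at 135 to 131 bases. Of 33469 promoters of the same length in the table, 1.5% held a CArG box and 18.2% the TGACG core. The full element TGACGTCA, found in 1.59% of promoters, was in 0 of the 3 windows. The Ets core GGAA occurred 6 times in Egr1, where 2 of the matches overlapped the CArG boxes, and 3 times each in Egr2 and Egr4, against 93.2% of all promoters with at least 1 match. The Egr site itself, searched as GCGTGGGCG and GCGGGGGCG, was in 0 of the 3 windows, against 0.478% and 2.45% of all promoters. These matches describe letters in a short window and no binding was measured.

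**Figure D1:**
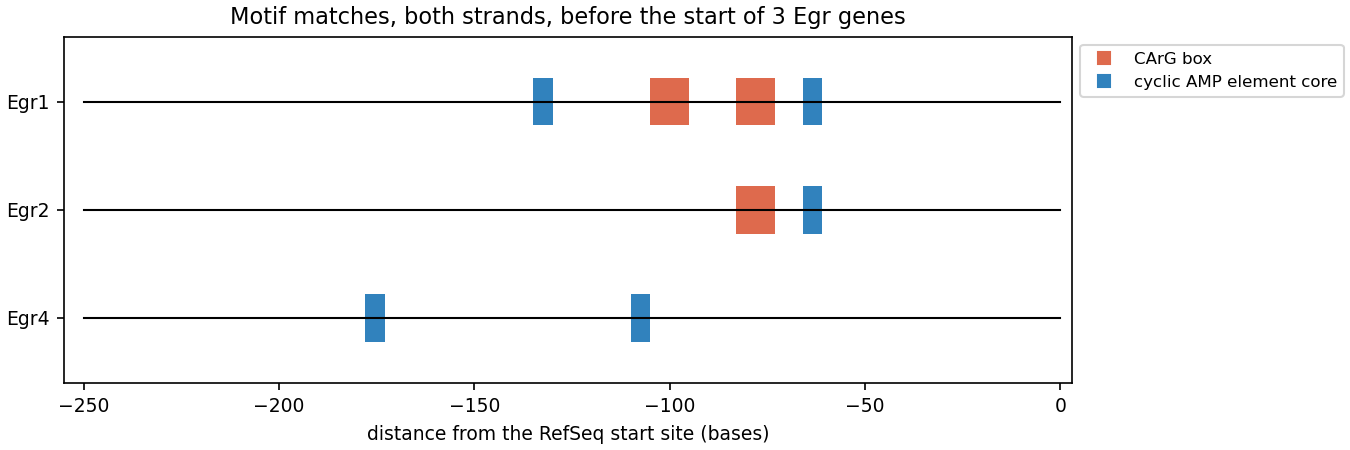
Matches of the CArG box and of the cyclic AMP element core TGACG on either strand (coloured blocks), by distance in bases from the RefSeq start site, for Egr1, Egr2 and Egr4. Egr1 and Egr2 share a CArG box at 83 to 74 bases and a TGACG core at 66 to 62 bases before the start, and Egr4 has 2 TGACG cores and 0 CArG boxes.

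The array MCAO candesartan 2 stood apart, correlating with its fellows at 0.960 on average where no other array fell under 0.976. Its group also had the widest median gap between pools, 0.225 on the log2 scale, beside 0.125 to 0.155 elsewhere.

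Egr1 lies on chromosome 18 (GRCr8, 26737078 to 26740877) and was read by probe set 1368321_at. Its signal, a linear intensity in arbitrary units, was 14018.1 and 13791.7 in the sham vehicle pools and 27486.5 and 24231.4 in the MCAO vehicle pools. It was 13593.3 and 12383.5 in the sham candesartan pools and 23617.6 and 29748 in the MCAO candesartan pools. Every MCAO pool was above every sham pool: the highest sham reading was 14018.1 and the lowest MCAO reading 23617.6. Of the tested probe sets, 2.83% had all 4 MCAO pools above all 4 sham pools, 24.6% had both above both within vehicle and 16.9% within candesartan. The means were 13904.9 ± 160 (SD, n = 2 pools) and 25859 ± 2301.7 with vehicle, and 12988.4 ± 855 and 26682.8 ± 4334.9 with candesartan. Pairing any MCAO pool with any sham pool of the same pretreatment gave ratios from 1.73 to 1.99 with vehicle and from 1.74 to 2.40 with candesartan.

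Egr4 lies on chromosome 4 (GRCr8, 119605358 to 119607817) and, over both pretreatments, had the largest log2 difference of the 4 tested Egr probe sets under each scaling and offset tried. With vehicle alone Egr1 exceeded it after quantile normalization (0.96 against 0.90), with cyclic loess (0.93 against 0.91) and with the larger offset of 916.3 (0.85 against 0.78). Probe set 1387442_at read 1545.7 and 1760.6 after sham surgery and 3866.7 and 3147.9 after MCAO with vehicle, against 1334.2 and 1565.2 and then 4248.1 and 3821.6 with candesartan. Again no MCAO pool overlapped a sham pool, and the pool ratios ran from 1.79 to 2.50 with vehicle and from 2.44 to 3.18 with candesartan. The means went from 1653.2 ± 152 to 3507.3 ± 508 with vehicle and from 1449.7 ± 163 to 4034.9 ± 302 with candesartan (SD, n = 2 pools). The other Egr4 probe set, 1375784_at, designed on the expressed sequence tag BF412806, did not follow it. It read 489 and 621.9 after sham surgery and 127 and 474.9 after MCAO with vehicle, against 468.9 and 547.9 and then 462.4 and 808.8 with candesartan. The groups overlapped, and all 8 readings lay below 916.3, the 40th percentile of all values and the limit used here for a measurable signal.

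Egr2 lies on chromosome 20 (GRCr8, 21050149 to 21055201). Probe set 1387306_a_at read 1421.2 and 1481.7 after sham surgery and 2593 and 2394 after MCAO with vehicle, against 1431.7 and 1151.3 and then 2538 and 2854.8 with candesartan. The lowest MCAO reading, 2394, was above the highest sham reading, 1481.7, and the pool ratios ran from 1.62 to 1.82 with vehicle and from 1.77 to 2.48 with candesartan. The second Egr2 probe set, 1398266_a_at, annotated to the same accession, read 396 and 739.9, then 835.3 and 663.9 with vehicle, and 563.9 and 464.4, then 733.3 and 678.3 with candesartan. Its MCAO pools overlapped sham with vehicle and lay above sham with candesartan, and all 8 readings were below the limit of 916.3.

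Egr3 lies on chromosome 15 (GRCr8, 51560482 to 51565778) and was read by probe set 1369545_at close to the same limit, with 5 of 8 arrays above it. It gave 811.3 and 1037.8 after sham surgery and 834.8 and 1182.8 after MCAO with vehicle, against 988.8 and 734.3 and then 996.8 and 1580.1 with candesartan. The vehicle groups overlapped, and with candesartan the lower MCAO pool, 996.8, was barely above the higher sham pool, 988.8. The highest of the 8 readings came from MCAO candesartan 2.

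**Figure D2:**
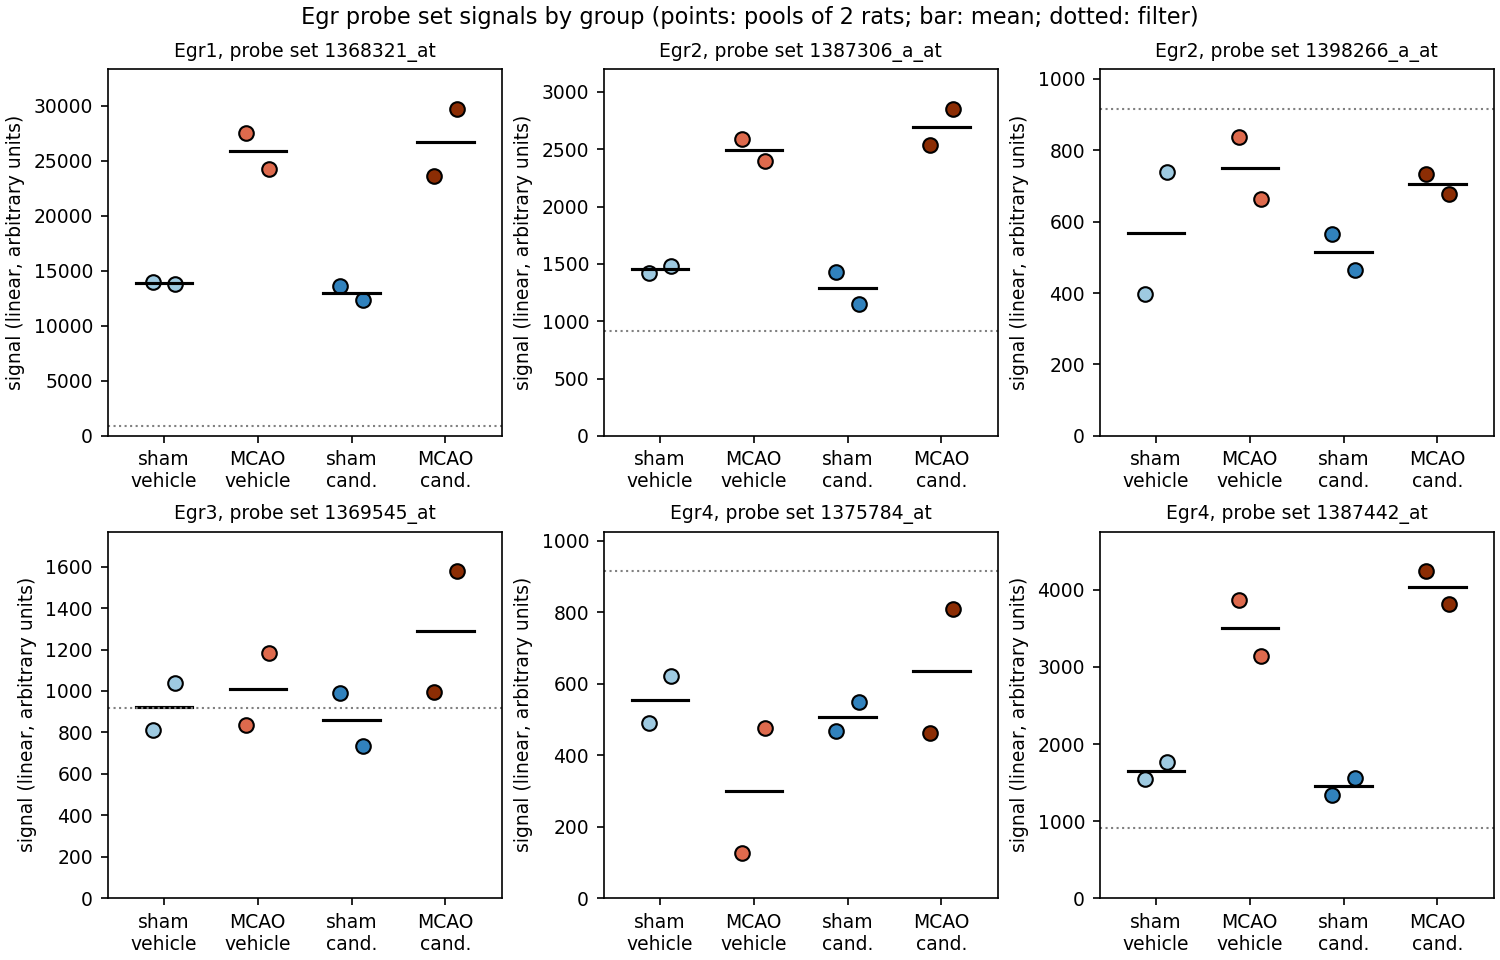
Signal (linear, arbitrary units, axis from 0) of the 6 Egr probe sets in the 4 groups; each point is a pool of 2 rats, the bar is the mean of 2 pools and the dotted line is the signal limit of 916.3. Egr1, Egr2 1387306_a_at and Egr4 1387442_at show all 4 MCAO pools above all 4 sham pools, while Egr3 and the 2 dim probe sets overlap.

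Changes were tested with limma on log2(signal + offset), the offset of 369.9 being the 20th percentile of all values, in 1 model of the 4 groups. A probe set was tested when its signal exceeded 916.3 on at least 2 arrays, and was called at an adjusted p under 0.05 (Benjamini-Hochberg over the 10310 tested). Of the 6 Egr probe sets 4 were tested, 1 for each gene. In vehicle rats 2 of the 4 were called higher after MCAO, against 0.262% of all probe sets. Egr4 rose by 0.93 ± 0.15 (log2, SE; adjusted p = 0.0248) and Egr1 by 0.87 ± 0.13 (adjusted p = 0.0235). Egr2 had a difference of 0.65 ± 0.14 (adjusted p = 0.159) and Egr3 of 0.08 ± 0.23 (adjusted p = 0.98). The differences of Egr1, Egr2 and Egr4 exceeded the largest gap between 2 pools of a group, 0.33, 0.24 and 0.27, and that of Egr3 did not (0.51). With array weights or only the 2 vehicle groups fitted, Egr2 passed too (adjusted p = 0.0216 and 0.0399). Both vehicle calls ended, at adjusted p from 0.0505 to 0.365, without any single sham vehicle, MCAO vehicle or sham candesartan array, and also with median-centred arrays, without the signal limit, without the variance trend or with a replicate block (0.0527 to 0.0911). They stood without MCAO candesartan 1, MCAO candesartan 2 or both (adjusted p from 0.00296 to 0.0208).

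In candesartan rats 3 of the 4 tested probe sets were called higher after MCAO, against 0.242% of all. Egr4 rose by 1.28 ± 0.15 (adjusted p = 0.00486), Egr1 by 1.01 ± 0.13 (adjusted p = 0.0108) and Egr2 by 0.89 ± 0.14 (adjusted p = 0.0412), while Egr3 had a difference of 0.41 ± 0.23 (adjusted p = 0.492). Without MCAO candesartan 2 the differences were 1.35, 0.85, 0.81 and 0.16, and without MCAO candesartan 1 they were 1.21, 1.17, 0.96 and 0.67, so Egr3 moved most with the choice of pool. Without sham candesartan 1 none of the 3 passed (adjusted p from 0.0822 to 0.11), without sham candesartan 2 only Egr4 did (adjusted p = 0.0456), and the Egr2 call stood only without MCAO candesartan 1 (adjusted p = 0.00879) among the fits that left out 1 array. The Egr2 call also ended without the signal limit, without the variance trend, with array weights, with a replicate block (adjusted p from 0.0563 to 0.152) and, with that of Egr1, when only the 2 candesartan groups were fitted (0.231 and 0.105).

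Over both pretreatments the same 3 genes were called, against 0.417% of all probe sets. Egr4 rose by 1.11 ± 0.10 (adjusted p = 0.000451), Egr1 by 0.94 ± 0.09 (adjusted p = 0.000738) and Egr2 by 0.77 ± 0.10 (adjusted p = 0.00586), which put them at positions 19, 22 and 37 of 10310 by size of rise. Egr3 had 0.25 ± 0.16 (adjusted p = 0.668). Leaving out any single array kept all 3 calls except that of Egr2 without MCAO vehicle 1 (adjusted p = 0.0583). An exact two-sided permutation test within pretreatments gave p = 0.0556 for each of the 3, the smallest value its 36 splits can give. For Egr3 the exact permutation p was 0.167.

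The 2 dim probe sets were fitted with all probe sets included. Egr2 1398266_a_at had a difference of 0.28 ± 0.22 with vehicle and of 0.28 ± 0.22 with candesartan (adjusted p = 0.948 and 0.646). Egr4 1375784_at had -0.51 ± 0.28 and 0.17 ± 0.28 (adjusted p = 0.873 and 0.848). Neither passed in any of the 6 comparisons, so the Egr2 and Egr4 results each rest on 1 probe set.

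Candesartan itself left 0 of the 4 tested probe sets called. After MCAO the difference between candesartan and vehicle was 0.04 for Egr1 (95% interval -0.26 to 0.33, adjusted p = 0.934), 0.10 for Egr2 (-0.22 to 0.41, adjusted p = 0.808), 0.26 for Egr3 (-0.25 to 0.76, adjusted p = 0.669) and 0.19 for Egr4 (-0.13 to 0.51, adjusted p = 0.615). For Egr1 the value turned to -0.14 after quantile normalization and -0.10 with cyclic loess. Without MCAO candesartan 2 the 4 values were -0.13, 0.02, -0.001 and 0.26, and without MCAO candesartan 1 they were 0.20, 0.17, 0.51 and 0.12. In this comparison 0.0679% of all probe sets were called, and 13.1% had an unadjusted p under 0.05 against 0 of the 4 Egr probe sets. After sham surgery the 4 differences were -0.10, -0.14, -0.07 and -0.15 in the same order (adjusted p = 1 for each), with 0% of all probe sets called, 3.92% at an unadjusted p under 0.05 and again 0 of the 4.

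The MCAO effect with candesartan minus that with vehicle, a direct test of whether the drug altered the response, was 0.14 for Egr1 (95% interval -0.28 to 0.55), 0.24 for Egr2 (-0.21 to 0.68), 0.33 for Egr3 (-0.39 to 1.04) and 0.34 for Egr4 (-0.11 to 0.80). The adjusted p lay between 0.624 and 0.854, 0 of the 4 had an unadjusted p under 0.05, and 0.0194% of all probe sets were called. Leaving out 1 array moved the values from -0.03 to 0.30 for Egr1, 0.11 to 0.36 for Egr2, 0.07 to 0.59 for Egr3 and 0.21 to 0.48 for Egr4, with 0.07 for Egr3 and -0.03 for Egr1 when MCAO candesartan 2 was left out. Egr2 thus passed in candesartan rats and not in vehicle rats without a called difference between the 2. The intervals still admit a response up to 0.80 larger or 0.11 smaller on the log2 scale for Egr4, so equal responses were not shown.

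**Figure D3:**
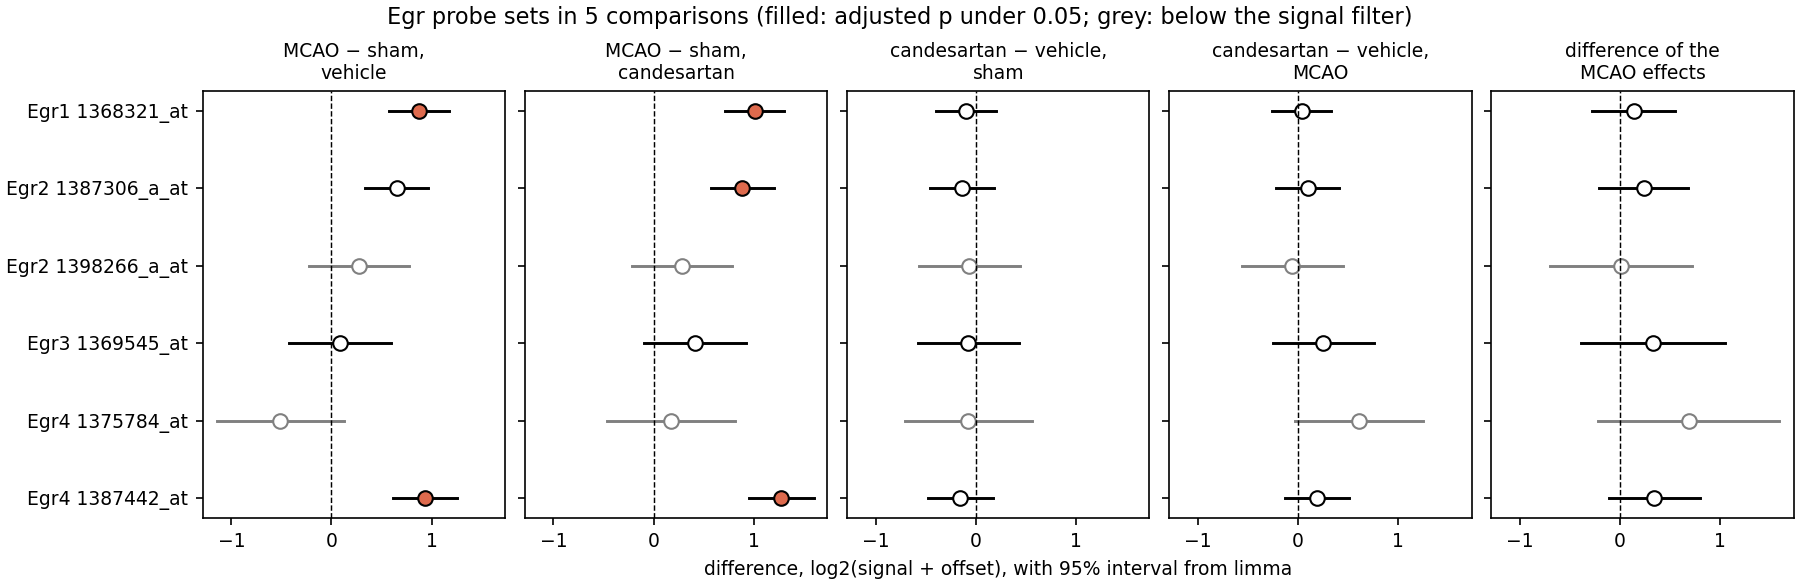
Differences on the log2(signal + offset) scale with 95% intervals from limma for the 6 Egr probe sets (rows) in 5 comparisons (panels). Filled points are called: Egr1 and Egr4 in both MCAO comparisons and Egr2 with candesartan; 0 points are filled in the 3 panels that involve the drug.

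The order of the group means was the same for Egr1, Egr2, Egr3 and Egr4 on the tested probe sets: MCAO candesartan, MCAO vehicle, sham vehicle, sham candesartan. In each gene the pools of the 2 MCAO groups overlapped. The pools of the 2 sham groups overlapped for Egr2, Egr3 and Egr4, and for Egr1 they lay apart by a mean of 0.10 on the log2 scale. The step between MCAO vehicle and sham vehicle was without overlap for Egr1, Egr2 and Egr4, as it was for 24.6% of the tested probe sets. The top 2 groups changed places for Egr1 under quantile or cyclic loess scaling and when MCAO candesartan 2 or MCAO vehicle 2 was left out, and for Egr3 when MCAO candesartan 2 was. The lower steps of Egr3 also changed sign when sham vehicle 1, sham vehicle 2, MCAO vehicle 2 or sham candesartan 2 was left out.

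The defining markers of neurons (7 of 7 measured), astrocytes (7 of 7) and oligodendrocytes (6 of 6) passed the signal limit. Of 47 tested markers of 10 cell types or regions, 0 were called by limma in either MCAO comparison (lowest adjusted p = 0.441 with vehicle and 0.168 with candesartan). An unadjusted p under 0.05 was reached by 1 with vehicle and 17 with candesartan, beside 7.04% and 12.4% of all tested probe sets. In a piece of tissue, fewer cells of a type and less RNA per cell cannot be told apart. For excitatory cortical and hippocampal neurons, cells in which Egr1 is abundant, the summed signal of the 4 measured of 6 (Slc17a7, Tbr1, Nrgn and Camk2a) was 72229.5 and 101631.5 in MCAO candesartan, 43738.5 and 49974.6 in sham candesartan, 47143.5 to 51866.6 in sham vehicle and 42573.9 to 56934.1 in MCAO vehicle. Both MCAO candesartan pools were above the other 6 arrays. The 3 thalamus markers summed to 13081.9 and 14602.5 there, below the 18220.2 to 21273 of the other 6, and the 8 microglia and macrophage markers to 11185 and 11614.6 against 12484 to 16636.8. Neuron markers summed to 194732.2 and 221023 in MCAO candesartan and to 162464.5 to 187862.9 elsewhere. Snap25 alone averaged 100091 in MCAO candesartan, against 63544.8 to 64641.4 in the other groups. With candesartan, MCAO minus sham was above 0 for 5 of the 7 neuron markers, while Eno2 (-0.22) and Map2 (-0.08) were below. The 4 blood markers summed to 80268 and 82408.7 against 89863.6 to 110402.5, mostly through Hbb, which averaged 78035 in MCAO candesartan. Of these, MCAO minus sham with candesartan was below 0 for Hbb (-0.32) and Alas2 (-0.80). It was above 0 for S100a8 (0.47) and S100a9 (0.47). With vehicle, the 7 astrocyte markers summed to 123870.3 and 133253.2 after MCAO against 151376.1 and 154251.6 after sham surgery, and 0 of 7 had a difference above 0. The 4 endothelium markers summed to 7699.5 and 7885 against 7206 and 7336, and the 3 choroid plexus markers to 56537.3 and 57620.1 against 47905.1 and 54359.6. Their members were not uniform: with vehicle Cldn5 (0.20), Flt1 (0.19) and Ttr (0.17) were above 0, and Vwf (-0.18) and Folr1 (-0.01) below. Pecam1, Kl, the microglia and macrophage markers Itgam and Cd68, and the blood markers S100a8 and S100a9 were under the signal limit on all arrays. The cortical sums overlapped between these groups, and the neuron sums of MCAO lay within those of sham. The part of any of these sums in the Egr values was not tested.

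Around the Egr factors, 0 of the 4 tested partners and competitors (of 7 listed) were called in either pretreatment. The corepressor gene Nab2 read 2019.3 ± 342 after sham surgery and 3166.2 ± 695 after MCAO with vehicle, and 2150.3 ± 376 and 3125.1 ± 145 with candesartan (SD, n = 2 pools). Its difference over both pretreatments was 0.52 (adjusted p = 0.141 by limma). Nab1, its relative, had 0.04 (adjusted p = 0.939), Sp1, which binds overlapping GC-rich sites, 0.08 (adjusted p = 0.841), and Zfp148 -0.14 (adjusted p = 0.668). The median of the 4 was 0.0576, beside -0.004 over the 7466 genes tested.

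Upstream, 9 of 20 listed genes were named by 1 symbol on the array and 7 were tested, with 0 called in any comparison. Srf, the CArG-binding factor, read 3780.2 ± 26.2 and 4711.3 ± 160 in sham and MCAO vehicle and 3739.5 ± 246 and 4543.3 ± 75.9 in sham and MCAO candesartan. The MCAO difference of Srf was 0.29 with vehicle and 0.26 with candesartan (adjusted p = 0.614 and 0.389). Over both pretreatments the ERK-activated kinase gene Rps6ka2 had 0.24, the ternary complex factors Elk1 and Elk3 -0.11 and -0.03, and the SRF coactivator Mrtfa -0.10 (adjusted p from 0.716 to 0.965). The median of the 7 was 0.01.

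The genes reported as Egr targets in neurons and synapses, 15 of 18 tested, had 2 called higher with vehicle, 3 with candesartan and 0 lower. Of all probe sets tested, 0.262% and 0.242% were called in these comparisons. Arc, which shapes glutamate receptor traffic at synapses, rose by 1.82 with vehicle and 1.87 with candesartan (adjusted p = 0.000162 and 0.00025). The orphan nuclear receptor gene Nr4a1 rose by 1.36 and 1.88 (adjusted p = 0.0134 and 0.00241). Dusp6, a phosphatase that switches off ERK, had 0.45 with vehicle (adjusted p = 0.456) and rose by 0.89 with candesartan (adjusted p = 0.0385). Its relative Dusp1 had 0.17 and 0.72 (adjusted p = 0.901 and 0.178), and the synaptic scaffold gene Homer1 0.30 and 0.39 (adjusted p = 0.688 and 0.314). Of the 15, 8 were above 0 with vehicle and 12 with candesartan, beside 53.6% and 45.4% of all genes, and the difference of the MCAO effects was above 0 for 15 of 15, beside 43.4% of all. That count was 12 of 15 without MCAO candesartan 2 and 15 of 15 without MCAO candesartan 1. The number of calls with candesartan also changed in those fits, which keep 1 pool in that group. The medians were 0.02 with vehicle and 0.25 with candesartan, beside 0.02 and -0.02 over all genes. The latter became 0.43 when MCAO candesartan 1 was omitted, and was 0.21 when the second pool was. The marker sums given for neurons, the general one largely through Snap25, moved in the same arrays, and their part in this list was not tested.

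The reported targets in inflammation, coagulation and growth, 14 of 27 tested, had 2 called higher with vehicle, 1 with candesartan and 0 lower. Of all probe sets tested, 0.262% and 0.242% were called in these comparisons. Of the 27 targets, 20 were on the array, and those not tested failed the signal limit. Among these, Ccl2 averaged 66.75 and 954.3 in sham and MCAO vehicle, and 66.75 and 526.4 with candesartan. Its difference over both pretreatments was 1.30 (adjusted p = 0.0192 by limma with all probe sets fitted). Cxcl2, Il1b, Fgf2 and Tgfb1 had 0.52, 0.15, 0.07 and 0.01, and Tnf had -0.17 (adjusted p from 0.64 to 0.984 in the same fit). Ptgs2, the inducible cyclooxygenase, rose by 1.49 with vehicle and 1.11 with candesartan (adjusted p = 0.00783 and 0.0477). Gadd45b, a stress-induced growth arrest gene, read 1190.5 ± 176 and 3405.1 ± 74.5 in sham and MCAO vehicle and 1167.3 ± 276 and 1538.2 ± 153 in sham and MCAO candesartan. It rose by 1.28 with vehicle (adjusted p = 0.00896) and had 0.32 with candesartan (adjusted p = 0.462), but the difference between these effects, -0.96, did not pass (adjusted p = 0.446). The protease inhibitor gene Timp1 had 0.85 and 0.05, the adhesion molecule gene Icam1 0.86 and -0.08, and the fibronectin gene Fn1 0.18 and -0.68 (adjusted p from 0.22 to 0.969). Of the 14 tested, 13 were above 0 with vehicle and 4 with candesartan, and 1 had a positive difference of the MCAO effects, beside 53.6%, 45.4% and 43.4% of all genes. For that difference 0 of the 14 were called, and 4 had an unadjusted p under 0.05 by limma, beside 8.87% of all tested probe sets. When MCAO candesartan 1 was left out 2 were called, among 296 over all probe sets. Without MCAO candesartan 2 the counts above 0 with candesartan and for the difference were 5 and 2, and without MCAO candesartan 1 they were also 5 and 2. The 1 call with candesartan changed with the MCAO candesartan pool left out, in fits that keep 1 pool in that group. The medians were 0.22 with vehicle and -0.07 with candesartan, the latter -0.13 without MCAO candesartan 2 and -0.14 without MCAO candesartan 1. The microglia and macrophage markers, also lower in MCAO candesartan, moved with this list, and their part in it was not tested.

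**Figure D4:**
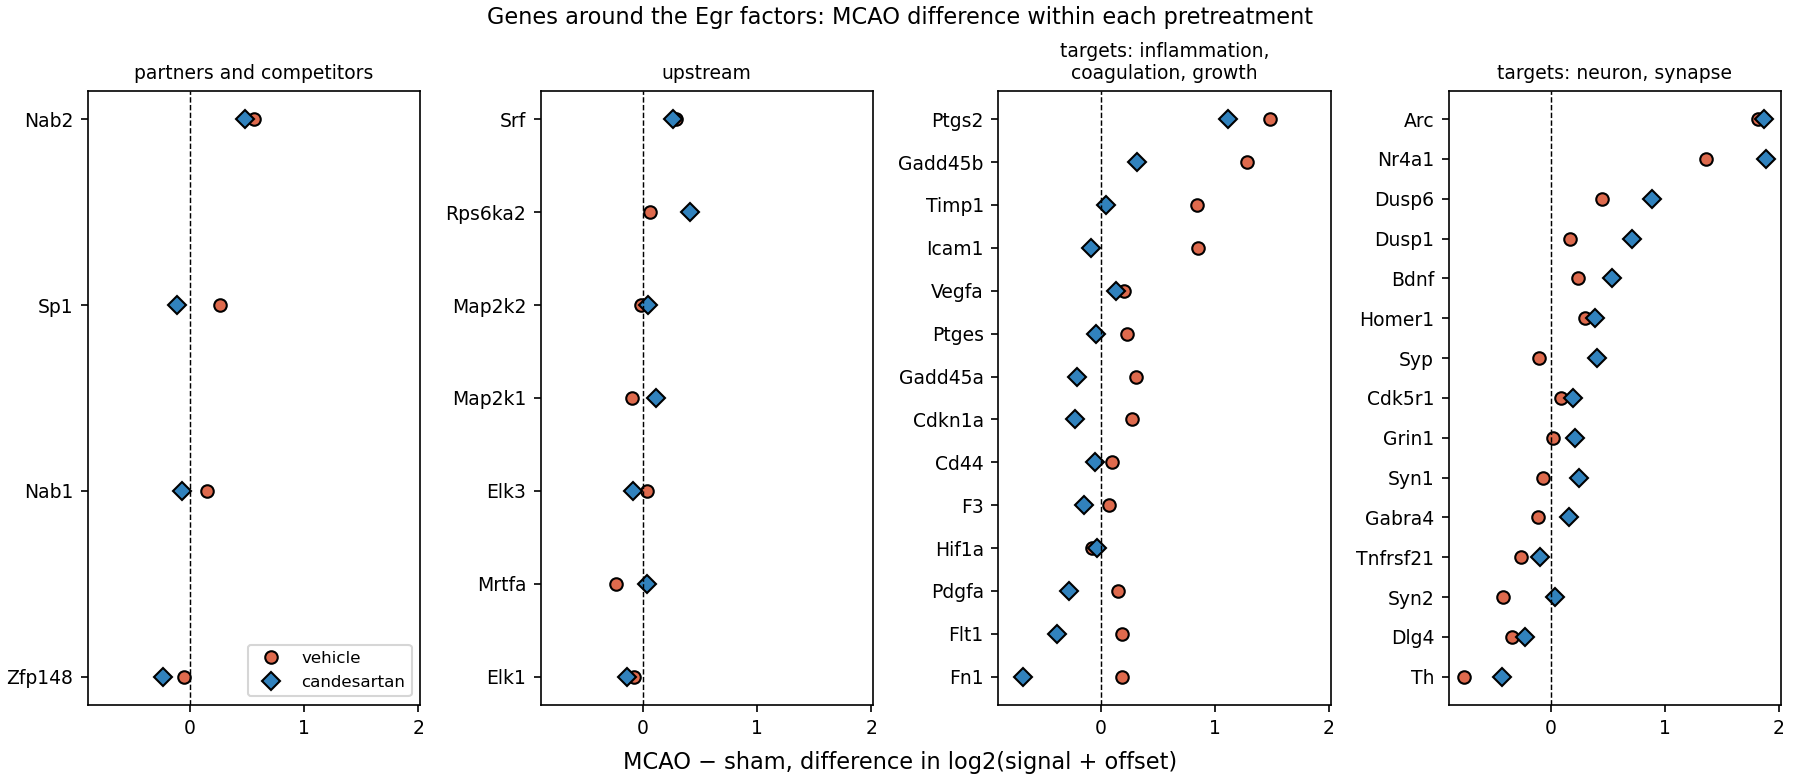
MCAO minus sham on the log2(signal + offset) scale with vehicle (circles) and candesartan (diamonds) for the tested genes of the 4 lists, 1 row per gene. Arc, Nr4a1 and Ptgs2 lie above 1 in both pretreatments, Gadd45b lies at 1.28 with vehicle and 0.32 with candesartan, and the upstream genes stay between -0.24 and 0.42.

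The genes whose log2 signal followed each member most closely over the 8 arrays were ranked by Pearson correlation among 7462 genes. For Egr1 they were Zfp36l1, an mRNA-destabilizing protein gene, Arc, Nr4a1, Fos and Fosb (r from 0.975 to 0.985). For Egr2 they were Nr4a1, Arc, Dusp6, Srf and Mrpl54 (0.967 to 0.991), and for Egr4 Arc, Lsm12, Fos, Rgs2 and RT1-T24-4 (0.952 to 0.972). Arc was in 3 of these lists and Nr4a1 and Fos in 2. The 5 genes nearest to Egr3 were Crip2, Commd9, Basp1, Dpf2 and Recql (0.945 to 0.989), of which 0 were near another member. Egr1, Egr2 and Egr4 correlated with each other at 0.954 to 0.989 and with Egr3 at 0.471 to 0.626. The arrays fall into sham and MCAO sets that the genes near Egr1, Egr2 and Egr4 share. For the 5 genes near Egr3 the MCAO difference over both pretreatments was only 0.07 to 0.17. All these correlations are a description over 8 arrays with no test.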

How the data were processed

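The authors deposited 1 table of probe set signal intensity on a linear scale for 8 arrays. GCOS, the Affymetrix operating software, is named per the submitters' processing notes; for GCOS, neither version nor scaling target is given in the sources used here. Array trimmed means nearly coincided, so the deposited scaling was kept. The table held 15923 probe sets, and 57 controls were left out. Symbols came from the platform annotation, and of 12783 probe sets with 1 symbol 12748 matched the RefSeq gene table. The offset of 369.9 understates changes of dim probe sets. All groups were fitted in 1 limma model (version 3.58.1 in R 4.3.3, variance trend, 4 residual degrees of freedom) with Benjamini-Hochberg adjustment within each of 6 contrasts. An exact test of 2 pools against 2 cannot go below p = 0.333, so these p-values rest on spread pooled over probe sets. The number of arrays limits the precision. For each listed gene 1 probe set was used, that with the highest mean signal. Up to 5 tested members of a list with the smallest p over both pretreatments were named. In the inflammation list the members below the signal limit were named as well. The members and lists were chosen with earlier results of these data known. The pool numbers in the titles were not taken as pairs in the main fit. Differences between numbered pools correlated between groups at -0.0951 to 0.137, which cannot settle whether pools of equal number shared a handling step.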

Additional observations from a re-analysis of the deposited data

How the results depend on the processing

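Of 114 counts of called Egr probe sets under alternative settings, 101 stayed within 1.5 times the reported count, and 444 of 456 log2 values kept their sign. The 114 include the 3 comparisons that involve the drug, where 0 were called in the main fit and in every alternative. All 13 counts that fell were therefore in the MCAO comparisons. Over both pretreatments 3 were called, and 2 to 3 without 1 array. With vehicle the count of 2 became 0 with median-centred arrays, without the signal limit, without the variance trend and with the replicate block, and lay between 0 and 2 without 1 array. With candesartan the count of 3 became 1 when only the 2 groups were fitted and lay between 0 and 3 without 1 array; the replicate block gave 2. Whether the pool numbers shared by the groups mark a common handling step was not settled. Leaving out an array lowers the residual degrees of freedom. Leaving out both MCAO candesartan arrays, added after seeing the data, kept the 2 vehicle calls. The values that changed sign were of differences that did not pass: Egr3 with vehicle (-0.0981 and -0.0416 without MCAO vehicle 2 or sham vehicle 1), Egr3 after sham (0.0524 and 0.0754), Egr3 after MCAO (-0.001), and Egr1 after MCAO and in the difference of MCAO effects (-0.136 to -0.0212). Signals near the limit of 916.3 leave Egr3 and the second Egr2 and Egr4 probe sets least well measured.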
